A study of Mus musculus with 4 samples.

Results

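The 9 genes described here are the receptor, kinases, brakes and transcription factor through which a mouse oocyte is held in, or released from, the resting state of the primordial follicle: Kit, Pdpk1, Akt1, Foxo3, Cdkn1b, Tsc1, Tsc2, Mtor and Rptor. They were chosen by name, and all 9 were found among the 25587 rows of the gene table. RNA-Seq was performed on 4 libraries, 1 for each stage of oocyte growth, all from wild-type C57BL/6Babr mice and depleted of ribosomal RNA. Non-growing oocytes (NGOs) came from mice aged 5 days post-partum (dpp) and measured 10 to 40 µm, the first growing oocytes (GO1) came from mice aged 8 to 14 dpp and measured 25 to 70 µm, the later growing oocytes (GO2) came from mice aged 15 dpp and measured 50 to 70 µm, and the fully grown germinal vesicle oocytes (FGOs) came from mice aged 20 dpp and measured over 70 µm. Each library was made from a pool of many oocytes, so differences between animals are not seen in these values. A dUTP protocol was used to make the NGO and FGO libraries, and the ScriptSeq kit was used for those of growing oocytes. There are no replicates, so no difference below carries a p-value.

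KIT is a receptor tyrosine kinase on the oocyte surface, and its ligand is made by the surrounding granulosa cells. Once bound, it recruits PI3K, which makes the membrane lipid PIP3. PDPK1 and AKT gather at that lipid, and active AKT drives FOXO3 out of the nucleus and inhibits TSC2, the GTPase-activating subunit of the TSC1-TSC2 complex that keeps mTORC1 off. FOXO3, the TSC complex and the CDK inhibitor p27 (Cdkn1b) are known as brakes on the awakening of resting follicles in mice. These steps act largely through phosphorylation and protein location, which RNA levels do not measure.

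The stretches just upstream of Kit, Foxo3 and Tsc1 are shown because these 3 genes are the receptor, the 2nd most abundant of the 9 RNAs and the TSC subunit whose level was higher in FGOs than in NGOs. All sequences are from RefSeq starts on GRCm38.p6, run 5′ to 3′ on the strand of the gene and end before the first annotated exon base. The windows are chr5:75574737-75574915 on the plus strand (Kit, 179 bases), chr10:42276756-42276945 on the minus strand (Foxo3, 190 bases) and chr2:28640983-28641227 on the plus strand (Tsc1, 245 bases). Capitals mark GC boxes (GGGCGG, either strand) and E-boxes (CANNTG, which reads the same pattern on both strands).
Kit: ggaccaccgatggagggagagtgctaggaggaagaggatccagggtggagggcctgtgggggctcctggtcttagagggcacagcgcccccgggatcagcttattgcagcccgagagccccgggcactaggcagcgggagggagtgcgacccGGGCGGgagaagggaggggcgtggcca
Foxo3: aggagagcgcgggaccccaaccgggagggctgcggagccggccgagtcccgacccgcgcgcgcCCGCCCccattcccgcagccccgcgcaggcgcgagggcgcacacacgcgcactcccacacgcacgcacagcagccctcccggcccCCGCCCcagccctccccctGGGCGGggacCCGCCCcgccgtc
Tsc1: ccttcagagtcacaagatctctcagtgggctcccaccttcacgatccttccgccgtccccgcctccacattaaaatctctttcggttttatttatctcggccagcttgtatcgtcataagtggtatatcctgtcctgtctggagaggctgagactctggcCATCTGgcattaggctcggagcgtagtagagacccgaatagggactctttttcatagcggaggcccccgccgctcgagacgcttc

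The Foxo3 window held 4 GC boxes and was 81.6 % G and C, and the Kit window held 1 GC box at 69.3 % G and C. The Tsc1 window held no GC box, 1 E-box and 53.9 % G and C. Among 32851 RefSeq starts, 32.7 % had a GC box, 66.2 % had an E-box and 3.17 % had the FOXO motif (TGTTTAC, either strand) in the 250 bases before the start. Of the RefSeq starts of the 9 genes, 1 start of Akt1 had the FOXO motif. These matches describe letters only and do not show binding.

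RPKM divides the reads of a gene by its exon length and by the depth of the library, which allows genes to be compared within a library. Counts were recovered from these values, and every 95 % interval below covers counting error only, after the counts were divided down to the uniquely mapped reads. Changes are log2 ratios after the libraries were scaled to each other, and a gene is said to have risen or fallen only when it passed 2-fold. Changes are called only within a protocol, that is between NGOs and FGOs (dUTP) and between GO1 and GO2 (ScriptSeq). Between NGOs and GO1, and between GO2 and FGOs, stage and library protocol cannot be told apart.

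The genes were all detected in every library, and Kit and Foxo3 stood well above the other 7. From NGOs to FGOs, 1 of the 9 fell, Tsc2, and 0 rose. Over all 15253 genes tested, 16.8 % fell and 17.7 % rose in that comparison. From GO1 to GO2, 0 of the 9 rose and 0 fell, where 6.87 % of 15734 genes rose and 2.85 % fell. The median change of the 9 was −0.38 from NGOs to FGOs (all genes −0.01) and −0.07 from GO1 to GO2 (all genes 0.02).

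**Figure D1:**
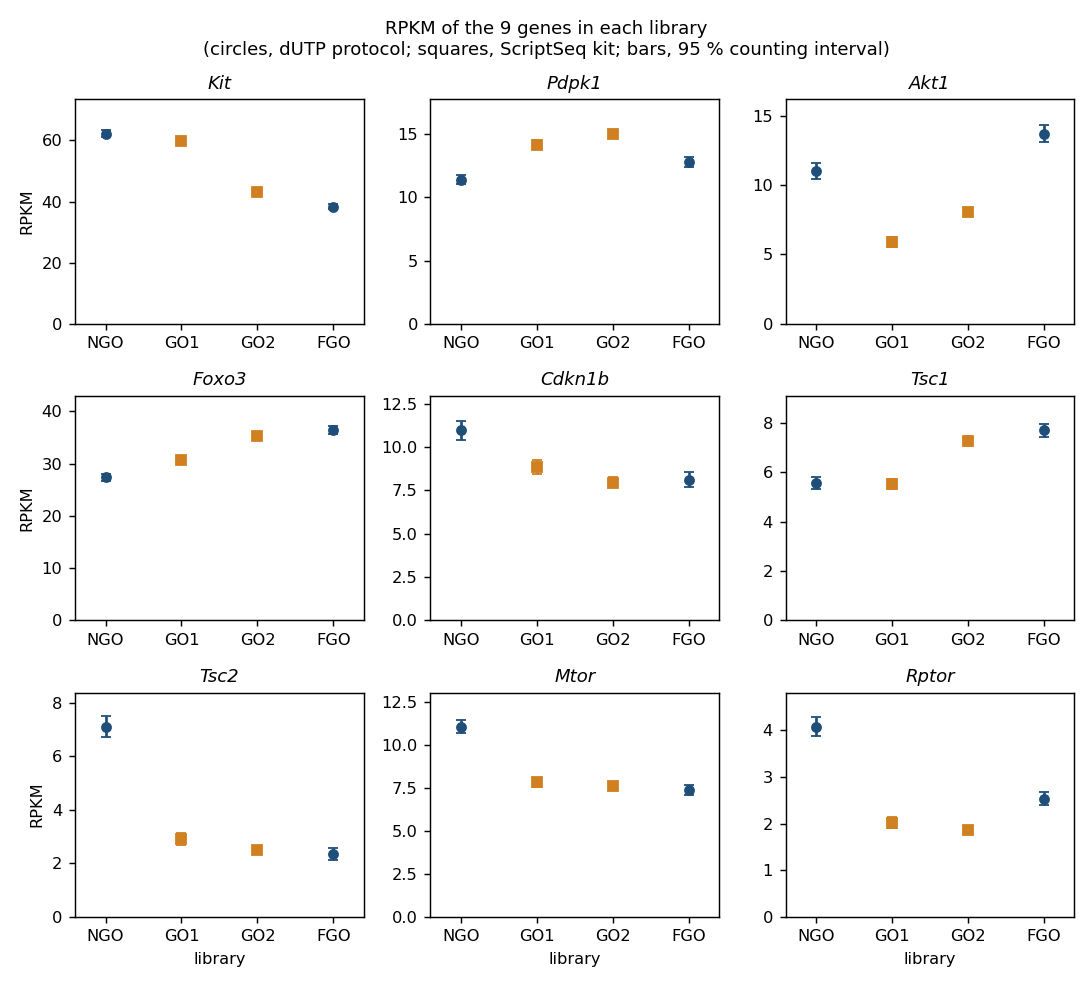
RPKM (linear axis from 0) of each of the 9 genes in the NGO, GO1, GO2 and FGO libraries, 1 point per library, with bars for the 95 % counting interval, circles for the dUTP protocol and squares for the ScriptSeq kit. Kit is lower in GO2 and FGOs than in NGOs and GO1, Foxo3 is higher, and Tsc2 stands at 7.10 RPKM in NGOs and between 2.34 and 2.90 in the others.

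Kit (chr5:75574916-75656722, plus strand, GRCm38) was the most abundant of the 9 RNAs in every library. It measured 62.2 RPKM in NGOs, 59.9 in GO1, 43.1 RPKM in GO2 and 38.4 in FGOs. NGOs and GO1 were thus close to each other, and GO2 and FGOs were both lower. The scaled change was −0.64 from NGOs to FGOs (interval −0.69 to −0.60, 1.56-fold lower) and −0.51 from GO1 to GO2 (−0.54 to −0.48, 1.42-fold lower). Neither passed 2-fold, but from GO1 to GO2 only 28.6 % of tested genes differed by more, against 50.6 % from NGOs to FGOs. Kit stayed high among all genes, at the 97.5th percentile of detected genes in NGOs and the 94.95th in FGOs, where detected means at least 3 counts.

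The RNA of the KIT ligand, Kitl, was low in these libraries. It measured 0.514 RPKM in NGOs, 0.804 in GO1, 1.32 RPKM in GO2 and 1.63 in FGOs. Kitl rose from NGOs to FGOs by 1.72 on the log2 scale, opposite in direction to its receptor. The ratio of Kit to Kitl was 121 in NGOs and 74.5 in GO1, then 32.6 in GO2 and 23.5 in FGOs. The sum over the 12 listed granulosa markers, Kitl among them, was also higher in each later library, at 6.67, 12.2, 16.6 and 19.8 RPKM in the same order, with 12, 11, 12 and 12 of them at 3 counts or more. Nr5a2 and Cyp19a1 made up most of that sum, and most of the markers did not follow it. Of the 11 other than Kitl, 2 (Fshr and Cyp19a1) were higher at every step, 7 were lower in GO1 than in NGOs, and between the dUTP libraries 6 were higher and 5 lower in FGOs than in NGOs. Foxl2, Amhr2, Inhba and Fst were highest in NGOs. The defining markers Foxl2 (at most 0.0753 RPKM) and Amh (at most 0.412 RPKM) were near 0. The part of granulosa RNA in the Kitl values was not tested, and in bulk samples fewer cells of a type and less RNA per cell cannot be told apart.

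Pdpk1 (chr17:24073680-24150924, minus strand) encodes PDK1, which phosphorylates AKT at the membrane. It measured 11.4 RPKM in NGOs, 14.2 in GO1, 15.04 RPKM in GO2 and 12.8 in FGOs. It varied little within a protocol, with a change of 0.22 from NGOs to FGOs (0.16 to 0.28) and of 0.05 from GO1 to GO2 (0.01 to 0.09). The 2 ScriptSeq libraries were both above the 2 dUTP libraries.

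Akt1 (chr12:112653821-112674884, minus strand), a kinase that carries the signal from PIP3 to FOXO3 and TSC2, had the opposite arrangement. It measured 11.0 RPKM in NGOs, 5.91 in GO1, 8.07 RPKM in GO2 and 13.7 in FGOs. Both ScriptSeq libraries were thus below both dUTP libraries. Within a protocol the later stage was higher, by 0.37 from NGOs to FGOs (0.27 to 0.47) and by 0.42 from GO1 to GO2 (0.31 to 0.52). Akt1 had the largest positive change of the 9 from GO1 to GO2.

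Akt2, the form best known for insulin responses, was below Akt1 in every library. It measured 6.58, 1.88, 2.57 and 3.43 RPKM in the NGO, GO1, GO2 and FGO libraries, and Akt1 over Akt2 went from 1.68 in NGOs to 4.003 in FGOs. From GO1 to GO2 the ratio of Akt1 to Akt2 was 3.14 in both libraries.

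Foxo3 (chr10:42181841-42276755, minus strand), the transcription factor that holds primordial follicles at rest while it is in the nucleus, was the 2nd most abundant of the 9 in every library. It measured 27.4 RPKM in NGOs, 30.6 in GO1, 35.3 RPKM in GO2 and 36.4 in FGOs. Its scaled change was 0.46 from NGOs to FGOs (0.42 to 0.51) and 0.17 from GO1 to GO2 (0.14 to 0.20). In none of the 3 later libraries was Foxo3 below its NGO level. Kit exceeded Foxo3 by 62.2 to 27.4 RPKM in NGOs and by only 38.4 to 36.4 RPKM in FGOs.

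Among the FOXO factors Foxo1 measured 5.16 RPKM in NGOs, 10.5 in GO1, 7.48 RPKM in GO2 and 8.67 in FGOs. Foxo3 exceeded Foxo1 by 5.31, 2.90, 4.71 and 4.20 times in the same order. Foxo4 fell from NGOs to FGOs, from 0.776 to 0.350 RPKM (−1.09), and Foxo6 stayed under 0.55 RPKM in every library.

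Cdkn1b (chr6:134920401-134925513, plus strand) encodes p27, a CDK inhibitor that restrains follicle activation in mice. It measured 11.0 RPKM in NGOs, 8.84 in GO1, 7.96 RPKM in GO2 and 8.12 in FGOs. NGOs were highest and the other libraries lay close together. The changes were −0.38 from NGOs to FGOs (−0.49 to −0.28) and −0.19 from GO1 to GO2 (−0.27 to −0.10). Skp2, the F-box protein that marks p27 for degradation, was at 1.16, 1.06, 1.55 and 1.44 RPKM in NGOs, GO1, GO2 and FGOs.

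Tsc1 and Tsc2 encode the subunits of the complex that inactivates RHEB, and their RNAs went in opposite directions. Tsc1 (chr2:28641228-28691167, plus strand) measured 5.58 RPKM in NGOs, 5.52 in GO1, 7.28 RPKM in GO2 and 7.71 in FGOs. Its scaled change was 0.52 from NGOs to FGOs (0.44 to 0.60), the largest positive one among the 9, and 0.37 from GO1 to GO2 (0.30 to 0.43).

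Tsc2 (chr17:24595937-24632629, minus strand) measured 7.10 RPKM in NGOs, 2.90 in GO1, 2.48 RPKM in GO2 and 2.34 in FGOs. The NGO library stood apart and the other 3 were close to each other. Tsc2 fell from NGOs to FGOs by 1.55 on the log2 scale (interval −1.70 to −1.40, 2.92-fold), and 20.5 % of tested genes differed by more. From GO1 to GO2 its change was −0.26 (−0.39 to −0.13). The ratio of Tsc1 to Tsc2 was 0.786 in NGOs and 1.90 in GO1, then 2.93 in GO2 and 3.30 in FGOs. The ratio was thus higher in FGOs than in NGOs, made with the same protocol. Which of the 2 genes is higher in a library depends on the lengths used. These were an exon union of 11833 bases for Tsc1 and a transcript of 6018 bases for Tsc2. In NGOs Tsc1 had more recovered counts (7299 against 4723), though its RPKM was lower.

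Tsc2 ends within Pkd1, a gene on the other strand whose span overlaps it by 578 bases. Whether the deposited counts used strand is not given in the sources used here, so reads in the overlap could belong to either gene. Pkd1 measured 3.37 RPKM in NGOs, 1.14 in GO1, 0.922 RPKM in GO2 and 1.44 in FGOs, and was thus also highest in NGOs. At its other end Tsc2 starts 53 bases from the start of Nthl1, a DNA repair gene that runs the opposite way. Nthl1 measured 18.7, 7.38, 9.76 and 13.2 RPKM in the same order, with a change of −0.45 from NGOs to FGOs. The 8 listed stromal markers summed to 5.66 RPKM in NGOs, 0.421 in GO1, 0.398 RPKM in GO2 and 0.324 in FGOs, with 6, 7, 7 and 6 of them at 3 counts or more. Col1a1, Col1a2 and Col3a1 made up most of the NGO sum, and 6 of the 8 were highest in NGOs. Nr2f2 was highest in GO1 (0.245 RPKM, against 0.141 in NGOs) and Cyp17a1 in GO2 (0.0249 RPKM). Pdgfra was nearly equal in NGOs (0.189 RPKM) and GO2 (0.188 RPKM). Col1a1, the defining marker of stromal cells, was 2.24 RPKM in NGOs and at most 0.0191 elsewhere. The part of these cells in the levels of Tsc2 and of the other genes that were highest in NGOs was not tested.

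Mtor (chr4:148448611-148557683, plus strand), the kinase of both mTOR complexes, measured 11.0 RPKM in NGOs, 7.81 in GO1, 7.61 RPKM in GO2 and 7.38 in FGOs. NGOs were again highest. Its change was −0.53 from NGOs to FGOs (−0.60 to −0.46) and −0.07 from GO1 to GO2 (−0.13 to −0.01). Rptor (chr11:119602905-119899576, plus strand), the scaffold that presents substrates to mTORC1, measured 4.08 RPKM in NGOs, 2.02 in GO1, 1.86 RPKM in GO2 and 2.53 in FGOs. It was among the lowest of the 9 in every library, below Tsc2 in the first 3 and indistinguishable from it by counting interval in FGOs. Its change was −0.63 from NGOs to FGOs (−0.74 to −0.53) and −0.15 from GO1 to GO2 (−0.26 to −0.05). The antisense genes within Mtor (Angptl7, at most 0.0329 RPKM) and Rptor (A430071A18Rik, at most 0.00712 RPKM) were near 0.

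Rictor, the matching scaffold of mTORC2, exceeded Rptor in every library. It measured 12.8 RPKM in NGOs, 20.5 in GO1, 17.4 RPKM in GO2 and 14.1 in FGOs, and the ratio of Rptor to Rictor was 0.319, 0.0984, 0.107 and 0.180. The ratio was lower in FGOs than in NGOs, and lower still in both ScriptSeq libraries.

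**Figure D2:**
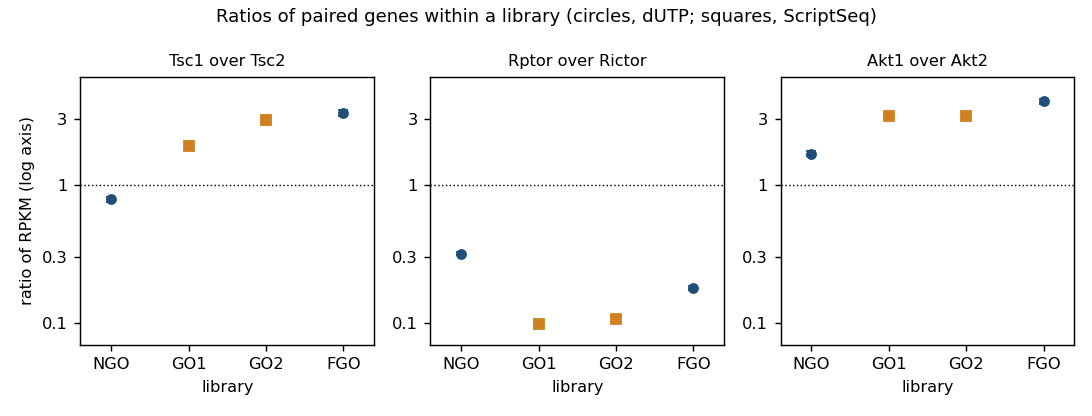
Ratio of RPKM within each library (log axis) for Tsc1 over Tsc2, Rptor over Rictor and Akt1 over Akt2, with circles for the dUTP protocol, squares for the ScriptSeq kit, bars for the 95 % interval of the recovered counts and a dotted line at 1. The counts behind these bars were not divided down to the uniquely mapped reads. Tsc1 over Tsc2 is below 1 in NGOs (0.786) and between 1.90 and 3.30 in the others, and Rptor over Rictor stays below 1 in all 4 libraries.

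The order of the 9 levels changed below its top. In NGOs, Pdpk1, Mtor, Akt1 and Cdkn1b followed Kit and Foxo3 with neighbours whose intervals overlapped (11.4 to 11.0 RPKM), then came Tsc2, Tsc1 and Rptor. In GO1, Akt1 and Tsc1 were the only neighbours with overlapping intervals (5.91 and 5.52 RPKM). In GO2, each neighbouring pair in the run Akt1, Cdkn1b, Mtor and Tsc1 overlapped (8.07 to 7.28 RPKM). In FGOs, Akt1 had moved up next to Foxo3, not separated from Pdpk1, and Tsc2 was last, not separated from Rptor. At or above the 75th percentile of detected genes lay 6 of the 9 in NGOs and 5 in GO1, then 7 in GO2 and 4 in FGOs, and the lowest percentile of any of the 9 in any library was 52.8, for Tsc2 in FGOs.

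**Figure D3:**
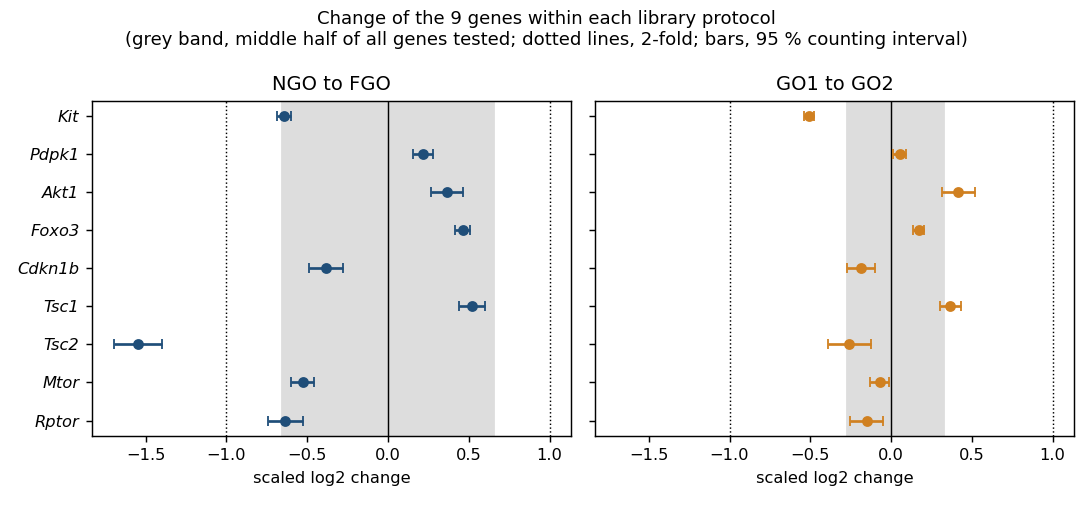
Scaled log2 change of each of the 9 genes from NGOs to FGOs (left) and from GO1 to GO2 (right), with bars for the 95 % counting interval, a grey band over all genes tested between their lower and upper quartiles and dotted lines at 2-fold. Tsc2 alone lies past 2-fold, on the left, at −1.55, and on the right Kit, Akt1 and Tsc1 lie outside the grey band.

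The direction was shared by both same-protocol comparisons for every one of the 9, but the share of all genes that kept theirs was not computed. Some of these changes were small. From GO1 to GO2, 90.1 % of tested genes differed by more than Pdpk1 (0.05) and 86.3 % by more than Mtor (−0.07). Kit, Cdkn1b, Tsc2, Mtor and Rptor were lower at the later stage in both, and Pdpk1, Akt1, Foxo3 and Tsc1 were higher in both. Across protocols the changes from NGOs to GO1 ranged from −1.16 (Tsc2) to 0.44 (Pdpk1), and those from GO2 to FGOs ranged from −0.34 (Pdpk1) to 0.66 (Akt1). Before scaling, RPKM was shifted by −0.13 over all genes from NGOs to GO1 and by 0.11 from GO2 to FGOs, and these shifts were removed.

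The rest of the pathway was described with 13 lists holding 135 further genes in the table. From NGOs to FGOs, 11 of the 130 that could be tested rose and 27 fell, which is 8.46 % and 20.8 % beside 17.7 % and 16.8 % of all genes. Those shares of all genes are the background for each count per list below. The lists are small and share some genes, so 1 gene can be counted in more than 1 list. From GO1 to GO2, 1 of 131 rose (Lyn) and 3 fell (Cblb, Cat and Cdkn1a), beside 6.87 % and 2.85 % of all genes.

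**Figure D4:**
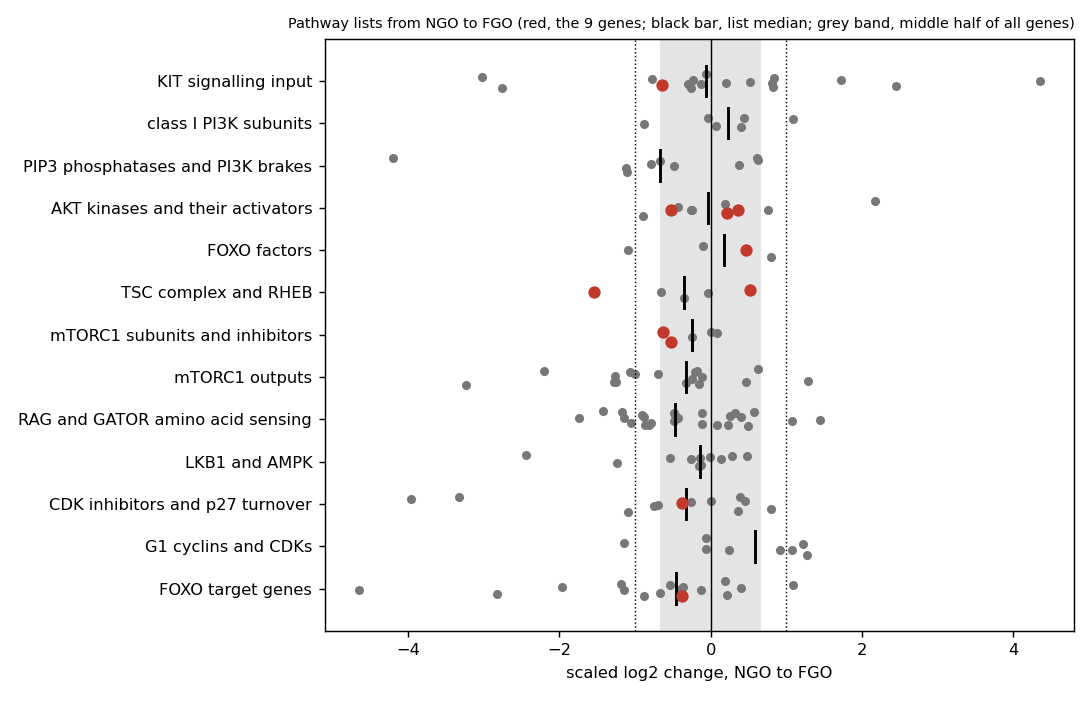
Scaled log2 change from NGOs to FGOs of each tested gene (points, with vertical scatter only to separate them) in the 13 pathway lists, with the 9 genes in red, a black bar for the list median, a grey band over all genes between their lower and upper quartiles and dotted lines at 2-fold. The list of PIP3 phosphatases and PI3K brakes has the lowest median (−0.67) and the list of G1 cyclins and CDKs the highest (0.58).

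Close to the receptor, 3 of 16 other genes of KIT signalling rose from NGOs to FGOs and 2 fell. Lyn, a SRC-family kinase that binds KIT in blood cells, went from 0.0866 to 1.75 RPKM (4.36) and Stat5a from 0.146 to 0.770 RPKM (2.44). The adaptor Gab1 fell from 0.517 to 0.0723 RPKM (−2.76) and Cblb, a ubiquitin ligase that turns down tyrosine kinase signals, from 0.332 to 0.0383 RPKM (−3.02). From GO1 to GO2, Lyn rose as well (2.08) and Cblb fell (−1.17). Fyn, another SRC-family kinase, was far more abundant than Lyn, at 14.4 RPKM in NGOs and 24.6 in FGOs (0.83).

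For PI3K itself, 1 of 6 tested subunits rose from NGOs to FGOs and 0 fell. That was Pik3ca, the p110α catalytic subunit, which measured 4.30 RPKM in NGOs, 8.53 in GO1, 9.57 RPKM in GO2 and 8.79 in FGOs (1.09). The most abundant catalytic subunit was Pik3cd, better known from white blood cells, at 58.6, 47.2, 56.7 and 76.5 RPKM (0.44). Ptprc, which defines white blood cells, was at most 0.0192 RPKM in these libraries. The other immune markers found were Cd68, at 0.326 to 0.626 RPKM, and Lyz2, at most 0.136 RPKM. The part of white blood cells in the Pik3cd values was not tested. The regulatory subunit Pik3r1 was at 18.3 RPKM in NGOs and 23.2 in FGOs (0.39).

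Of the PIP3 phosphatases and PI3K brakes, 3 of 9 tested fell from NGOs to FGOs and 0 rose, beside 16.8 % and 17.7 % of all genes. The list median was −0.67. Inppl1 went from 11.6 to 5.20 RPKM (−1.11), and Inpp4b, which also fell, was at most 0.0622 RPKM in any library. Pik3ip1, an inhibitor of PI3K, was at 2.21 RPKM in NGOs and 3.28 in FGOs (0.62).

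Among the other genes of the AKT and mTORC2 list, 1 of 7 rose and 0 fell. Prr5l, which binds mTORC2, went from 3.62 RPKM in NGOs to 15.7 in FGOs (2.17). Of the TSC and RHEB genes, Tsc2 was the only one of 5 past 2-fold, and Rheb, the GTPase that switches mTORC1 on, measured 7.44 RPKM in NGOs and 5.59 in FGOs (−0.36). Of 5 subunits and inhibitors of mTORC1, 0 rose and 0 fell. Mlst8, shared by both mTOR complexes, was at 3.99 and 3.23 RPKM (−0.25), and the inhibitor Deptor at 8.75 and 8.47 RPKM (0.01), with 17.3 RPKM in GO1 and 12.4 in GO2.

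Downstream of mTORC1, 6 of 17 genes fell from NGOs to FGOs and 1 rose. Eif4ebp1, the repressor of cap-dependent translation that mTORC1 inactivates, measured 12.6 RPKM in NGOs, 2.20 in GO1, 1.57 RPKM in GO2 and 1.29 in FGOs (−3.23). Eef2k, a brake on translation elongation, rose from 21.3 to 50.01 RPKM (1.28). The S6 kinase Rps6kb1 was at 3.23 RPKM in NGOs and 2.69 in FGOs (−0.21). Rps6 was counted among those that fell, but it has near-identical copies in the genome and its value is uncertain.

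Of the 25 genes of RAG and GATOR amino acid sensing, 2 rose and 5 fell. Rragc rose from 24.3 to 49.1 RPKM (1.07). Of 11 tested LKB1 and AMPK genes, 2 fell. Stk11, which encodes LKB1, was at 9.25 RPKM in NGOs and 8.13 in FGOs (−0.13), and Prkag2 fell from 0.794 to 0.141 RPKM (−2.43).

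Beside Cdkn1b, 3 of 11 genes of CDK inhibition and p27 turnover fell from NGOs to FGOs and 0 rose. Cdkn2a, which encodes p16 and p19ARF, fell from 3.22 to 0.193 RPKM (−3.96). Of 8 G1 cyclins and CDKs, 3 rose, all from low levels (Ccnd1, Ccnd2 and Cdk6), and 1 fell. That was Ccnd3, which measured 8.80 RPKM in NGOs and 3.83 in FGOs (−1.15). Of 15 tested genes known as FOXO targets, Cdkn1b aside, 5 fell and 1 rose. Pik3ca, which rose, was also counted among the PI3K subunits, and Sesn3, which fell, among the amino acid sensing genes. Cat, which encodes catalase, fell from 2.33 to 0.0864 RPKM (−4.65) and also fell from GO1 to GO2 (−1.62), while Txnip stayed high at 233 and 260 RPKM in NGOs and FGOs (0.21).

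Between GO1 and GO2 most of the pathway stayed within 2-fold. Cdkn1a aside, the genes named next had the largest rise or fall of their own list among those meeting the count minimum for naming. They are not the widest differences of the pathway. Akt1s1, Pik3cd, Pik3r3, Foxo6 and Cdkn2b changed by less than the median size over all genes tested (0.297). Wider changes, such as those of Stat5a (0.79) and Irs2 (-0.71), were left out where another gene of the list changed more. Higher in GO2 were Prr5l (0.65), Eef2k (0.56), Skp2 (0.51), the AMPK subunit Prkag1 (0.50), Cdk4 (0.39), Pik3ip1 (0.34), Foxo6 (0.28), Pik3cd (0.23) and the mTORC1 inhibitor Akt1s1 (0.11). From low levels, Trib1 (0.76) and Rragd (0.83) were higher as well. Lower in GO2 were Prkag2 (-0.84), Grb10 (-0.64), Foxo1 (-0.53), Deptor (-0.52), Ccnd3 (-0.39), Rheb (-0.37), Cdkn2b (-0.28) and Pik3r3 (-0.24). Cdkn1a, the CDK inhibitor p21, fell from 0.0603 to 0.0242 RPKM (-1.27), on only 17 and 13 recovered counts. Between NGOs and FGOs, values short of 2-fold at the edges of their lists included those of Foxo1 (0.80), Akt2 (-0.89) and Pik3r2 (-0.88). Others were Cul1 (0.79), a scaffold of the ligase that holds SKP2, Cab39l (0.48) and Akt1s1 (0.08). Those of Pik3ip1, Tsc1 and Rptor are given above.

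Profiles over the 4 libraries were also compared among 10748 genes with at least 100 counts in each, as Euclidean distance between centred log2 profiles. For Kit the nearest of those reported were Ppp6r3 (0.0011) and Nmd3 (0.052), and 1630 genes lay within 0.5. For Foxo3 they were Btbd10 (0.024), Dusp18 (0.044) and Herc2 (0.048), with 2359 genes within 0.5. Such profiles were therefore common. Among the 9 genes the closest pair was Cdkn1b and Mtor (0.142), followed by Foxo3 and Tsc1 (0.175), and the farthest was Tsc1 and Tsc2 (1.59). These profiles used RPKM before scaling and span both protocols. Differences of stage and of protocol enter each distance and cannot be told apart in it.

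As a sum, the oocyte markers were abundant at every stage. All 12 were detected in each library, with a summed level of 4842 to 6678 RPKM. Single markers could be low, as Sohlh1 was at 78.0 RPKM in NGOs and 2.35, 1.09 and 0.577 RPKM in GO1, GO2 and FGOs. The markers of mast cells, which also carry KIT, summed to at most 0.0701 RPKM, with Cpa3 at 0 counts in 3 libraries. The part of mast cells in the Kit values was not tested. The 4 endothelial markers summed to 3.37, 7.22, 11.1 and 12.4 RPKM in NGOs, GO1, GO2 and FGOs, mostly from Pecam1 and Tek, with Cdh5 at most 0.0408. The 3 immune markers found summed to at most 0.781 RPKM, and the 2 erythroid markers found to at most 0.921. The counts recovered on genes were 64989695, 77430405, 143763606 and 74250815 in the same order, and the RPKM of 3 counts on 1 kb of exon was between 0.0124 and 0.0271.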

How the data were processed

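Per the submitters' processing notes and the paper's methods, the authors trimmed reads with Trim Galore (0.2.8) and mapped them to GRCm38 with TopHat2 (2.0.9). The deposited values are RPKM, although they were deposited under a name that speaks of read counts, and the annotation, counting program and strand setting are not given in the sources used here. Whole counts were recovered by finding the library total and the exon length that made RPKM times length times total whole, with 99.6 to 99.7 % of values on single-exon genes whole within 0.005. For Kit the length was the smallest that fitted, for Tsc2 that of a GENCODE M21 transcript, and for the others a GENCODE M21 exon union. The smallest fitting length was used for 9961 of the 25587 genes, Kit among them. Their recovered counts are the lowest that fitted, so their true counts could be higher. Detection, the count minimums and the totals of counts on genes all rest on these recovered counts. The totals behind RPKM were 2.94 to 3.55 times the uniquely mapped reads the study gives, so 1 read pair gave several counts, and printed intervals were widened for this.

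Changes were computed in Python 3.11.15 (numpy 2.4.6, pandas 2.3.3, scipy 1.17.1) from recovered counts with a prior count of 1, brought to a common scale with the trimmed mean of the log ratios (30 % of ratios and 5 % of means trimmed), for genes whose 2 counts summed to 20 or more. Profiles used log2(RPKM + 0.1). The 9 genes and the lists were chosen with earlier results of these data known. Named in the text were the 9 genes, a set of core pathway genes, and genes with the largest rise or fall in each list among those with 100 or more counts in their higher library. Cdkn1a, Gab1, Stat5a, Fyn, Pik3cd, Inppl1, Inpp4b, Txnip, Rps6, Ccnd1, Ccnd2 and Cdk6 were also named after their values were seen, as were Nthl1 and Pkd1 for their position. Some genes that this rule selects are not reported here.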

Additional observations from a re-analysis of the deposited data

How the results depend on the processing

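Each of the 18 changes of the 9 genes kept its sign under 3 alternatives (deposited RPKM ratio with no further scaling, the median of log ratios set to 0, and a prior count of 5), and the largest move was 0.053 on the log2 scale. The first 2 alternatives shift all genes of a comparison by 1 common amount, which was smaller than each of these changes. The prior adds little where counts are 1684 or more, as for these genes. No sign could therefore have turned, and the check is a weak one. The number of the 9 genes that fell from NGOs to FGOs stayed at 1 under other scalings, prior counts, count minimums and counts divided down to uniquely mapped reads. It was 3 at a threshold of 1.5-fold, where Kit and Rptor join Tsc2 and 27.1 % of all genes fell, and 0 at 4-fold, where 5.51 % fell. The counts that rose, and both counts from GO1 to GO2, stayed at 0 under every alternative run. Of all genes, 15.2 to 27.1 % rose from NGOs to FGOs under alternatives other than 4-fold, where 8.57 % did. From GO1 to GO2, 4.19 to 14.2 % of all genes rose and 1.62 to 9.51 % fell under alternatives other than 4-fold. At 4-fold both of these shares were smaller, and 0.254 % fell. With only 9 genes beside shares this small, the counts of 0 from GO1 to GO2 say little.

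The number of the 9 at or above the 75th percentile depends on the genes compared. In GO2 it was 7 among genes detected there and 3 among genes that reach 3 counts in all libraries. In FGOs it was 4 among detected genes and 7 among all listed genes. If the total of counts on genes replaces the total behind the deposited values, all RPKM are multiplied by 1.70 (NGOs), 1.64 (GO1), 1.68 (GO2) and 1.61 (FGOs). The comparison of paired genes per coding length was not run, since no protein lengths were used here. No paired analysis was possible because each stage has 1 library.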
